A study of Mus musculus with 6 samples.

Results

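The 8 genes described here encode proteins with which professional antigen-presenting cells show peptides on MHC class II molecules, and they were read in soleus muscle of mice with 1 disrupted copy of *Mustn1*. They were chosen by symbol from the 16180 different gene identifiers of the deposited normalized table, with their difference between HET and WT mice already known, and were joined by gene identifier to the 51912 genes of the raw count table. They are the class II chains *H2-Aa*, *H2-Ab1* and *H2-Eb1*, the peptide exchange genes *H2-DMa* and *H2-DMb1*, the invariant chain *Cd74*, the transactivator *Ciita* and the costimulatory ligand *Cd86*. Since the choice rests on the HET against WT difference in these same 6 mice, that difference is given as a description and supports no statement about the genes as a set.

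Poly-A RNA of the soleus, a calf muscle rich in slow fibers, was sequenced from 3 HET and 3 WT littermates aged 8 weeks, of the strain C57BL6/N, with 1 library per mouse. The HET mice carry the Mustn1_KO-first allele, in which a lacZ and neomycin cassette traps splicing from the first exon, on 1 of the 2 chromosomes and in the whole body, and the WT mice carry none. Libraries held between 26790075 and 50368796 reads on genes, and 14696 genes passed the filter on low counts. *Mustn1* fell from 27.5 ± 3.89 normalized counts (CPM; SD, n = 3) in WT to 14.2 ± 2.33 (SD, n = 3) in HET mice, which on the log2 scale is a change of −0.96 (standard error, SE, 0.15, adjusted p = 0.0452 in edgeR). The labels call all 6 mice male, whereas *Xist* had 3858 to 9154 reads per mouse and 4 Y-linked genes together 0 to 12.

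Class II molecules are pairs of an alpha and a beta chain that hold peptides cut from engulfed protein and present them to helper T cells. The invariant chain fills the groove of a new pair until proteases trim it, H2-DM then swaps the remnant for peptide, and CD86 on the same cell gives the T cell its second signal. Dendritic cells, B cells and macrophages make these proteins, muscle fibers make little of them, and CIITA is the coactivator without which the genes stay nearly silent. CIITA does not bind DNA itself but docks on factors that sit on an X box and a Y box ahead of each class II gene.

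Promoters of 3 chain genes are shown because these boxes are the shared switch of the family. The sequences come from RefSeq promoters on GRCm38.p6, the build of the files, which reach from 250 bases before to 50 bases after each start and hold 8 of the 10 class II genes searched, 4 of them among the 8 genes described here. Each run is 65 bases, read 5′ to 3′ on the strand of its gene, and lies ahead of the counted exons. Capitals mark the Y box core ATTGG and, where found, the X1 box core GNAACNGNT ahead of it.
H2-Aa: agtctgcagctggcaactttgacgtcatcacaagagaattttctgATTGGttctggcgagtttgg
H2-Eb1: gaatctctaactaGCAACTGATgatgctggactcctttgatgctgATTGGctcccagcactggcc
H2-Eb2: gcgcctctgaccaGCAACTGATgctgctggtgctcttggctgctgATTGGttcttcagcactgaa

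The run of *H2-Aa* lies on the minus strand at chr17:34287852-34287916. The run of *H2-Eb1* lies on the plus strand at chr17:34305763-34305827, and that of *H2-Eb2*, a neighboring beta chain gene, at chr17:34325530-34325594. The Y box core began 48, 59 and 100 bases before the RefSeq start in *H2-Aa*, *H2-Eb1* and *H2-Eb2*. In both beta chain genes 23 bases lie between the X1 core and ATTGG, and their 9 letters of the X1 core are the same, GCAACTGAT. The letters of the X1 core were not in the *H2-Aa* window. The search took only exact letters, so it misses a box that departs from them and cannot show that an X box is absent. *H2-DMb1* held GTAACTGAT with 24 bases before ATTGG, but its RefSeq start lies 119 bases inside the counted gene. The 2 RefSeq starts of *H2-DMa* lie 12350 and 9664 bases ahead of the gene as counted and held no such pair. An X1 core followed by ATTGG after 10 to 30 bases on the same strand was found in 3 of the 9 class II promoters, each of another gene, and in 60 of all 32851 promoters, or 0.183%. Searched on both strands, the X1 core alone was in 9.94% of all promoters, the Y box core CCAAT in 37.4%, and the longer Y box CTGATTGG, which contains that core on its other strand, in 4.10%.

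The classical chains come first. Their genes lie side by side on chromosome 17, *H2-Ab1* from 34263209 to 34269418, *H2-Aa* from 34282744 to 34287827 and *H2-Eb1* from 34305877 to 34316199. *H2-Aa*, the alpha chain of the I-A molecule, stood at 12.4, 14.2 and 9.53 CPM in HET mice 1 to 3 and at 4.92, 5.53 and 3.99 CPM in WT mice 1 to 3. The lowest HET mouse was thus well above the highest WT mouse, and the means were 12.05 ± 2.36 (SD, n = 3) and 4.81 ± 0.776 CPM (SD, n = 3). The log2 fold change was 1.33 (SE 0.18, adjusted p = 0.0425 in edgeR over all genes tested). In bulk muscle RNA, more cells of a type and more RNA per cell cannot be told apart, here and for every gene that follows.

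*H2-Ab1*, the beta chain that pairs with it, had 9.78, 16.1 and 7.79 CPM in HET mice 1 to 3 and 5.38, 5.36 and 3.46 CPM in WT mice 1 to 3. Its HET mice spread the most of the 8 genes, with a coefficient of variation of 38.8%, and HET mouse 2 stood apart at the top. The log2 fold change was 1.25 (SE 0.28, adjusted p = 0.174 in edgeR), and without HET mouse 2 it was 0.92. *H2-Eb1*, the beta chain of the I-E molecule, had 9.35, 11.4 and 7.84 CPM in HET mice and 3.88, 4.89 and 2.94 CPM in WT mice. The genotypes did not overlap, and the log2 fold change was 1.30 (SE 0.21, adjusted p = 0.0562 in edgeR).

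C57BL strains carry a defective gene for the alpha chain of I-E, so that H2-Eb1 finds no partner in them. That gene, counted as *H2-Ea-ps*, had 5 reads in HET mouse 3 and 0 in each of the other 5 mice. *H2-Eb2*, whose promoter holds the same X1 letters and spacing as *H2-Eb1*, had 0 reads in all 6 mice, where a count of 0 allows up to 3 reads in a library.

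*Cd74*, the invariant chain that guides new class II molecules to the endosome, lies on chromosome 18 from 60803848 to 60812646, away from the H2 cluster. It had 27.6, 37.1 and 22.1 CPM in HET mice 1 to 3 and 10.5, 13.4 and 9.30 CPM in WT mice 1 to 3. HET mouse 2 was again the highest and HET mouse 3 the lowest of its genotype, as for each of the 3 chains. The means were 28.9 ± 7.58 (SD, n = 3) and 11.1 ± 2.12 CPM (SD, n = 3), and the log2 fold change was 1.39 (SE 0.20, adjusted p = 0.0452 in edgeR).

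*H2-DMa*, the alpha chain of the peptide exchange factor (chromosome 17, 34135182 to 34139101), had 2.32, 2.79 and 2.19 CPM in HET mice and 0.970, 1.13 and 1.05 CPM in WT mice. Its mice differed least within a genotype, with coefficients of variation of 13.1% in HET and 7.84% in WT mice. The log2 fold change was 1.20 (SE 0.23, adjusted p = 0.0907 in edgeR). *H2-DMb1*, its beta chain (chromosome 17, 34153072 to 34160230), had 0.935, 1.30 and 0.980 CPM in HET mice and 0.870, 0.567 and 0.405 CPM in WT mice. Here the genotypes nearly touched, with 0.0653 CPM between HET mouse 1 and WT mouse 1, and the log2 fold change of 0.82 was the smallest of the 8 (SE 0.36, adjusted p = 0.620 in edgeR). *H2-DMb2* is a close copy next to it, and reads that match both were left out of the counts, so the separate values of the pair are uncertain. *H2-DMb2* had 16, 10 and 12 reads in HET mice and 3, 8 and 3 in WT mice, too few for the filter.

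*Ciita*, on chromosome 16 from 10488178 to 10527564, was close to the limit of these libraries, with 16, 18 and 22 reads in HET mice 1 to 3 and 5, 6 and 11 in WT mice 1 to 3. These reads were 0.427, 0.671 and 0.501 CPM in HET mice and 0.167, 0.213 and 0.223 CPM in WT mice, with no overlap. The exact Poisson 95% intervals, which cover counting error only, were 9.15 to 26.0 reads around the 16 of HET mouse 1 and 5.49 to 19.7 around the 11 of WT mouse 3. The log2 fold change was 1.36 with a standard error of 0.41 (adjusted p = 0.314 in edgeR).

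*Cd86*, a ligand of CD28 and CTLA4 on T cells (chromosome 16, 36603869 to 36666081), had 31, 29 and 39 reads in HET mice and 5, 7 and 16 in WT mice. After scaling these were 0.828, 1.08 and 0.889 CPM in HET mice and 0.167, 0.248 and 0.324 CPM in WT mice. Its log2 fold change of 1.85 was the largest of the 8 (SE 0.37, adjusted p = 0.108 in edgeR), and its standard error was the second largest after that of *Ciita*. The filter asked for at least 0.297 CPM before scaling in 3 libraries. *Ciita* reached this in 3 HET and 0 WT mice and *Cd86* in 3 HET and 1 WT mouse, so both were tested through the genotype in which they were higher, and the other 6 genes reached it in all 6 mice.

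**Figure D1:**
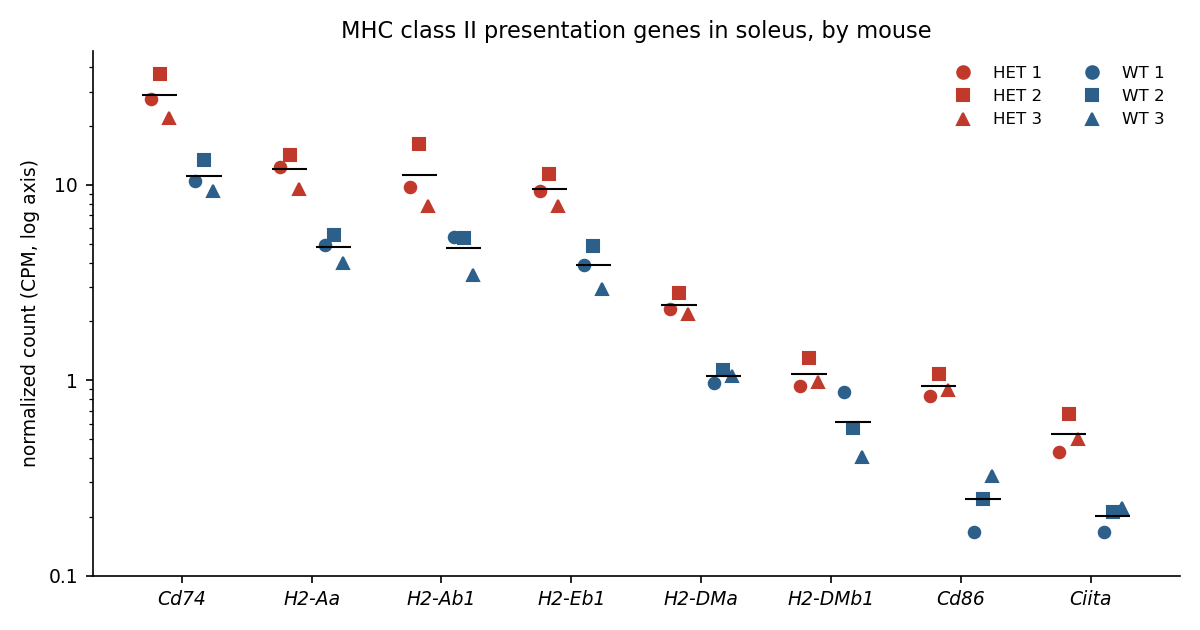
Normalized counts (CPM, log axis) of the 8 genes in each mouse, red for HET and blue for WT, with a marker shape for each replicate number and a black line at the mean of 3 mice. The genotypes do not overlap in any of the 8 genes, they come closest in *H2-DMb1*, and HET mouse 2 (red square) is highest in each gene.

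Summed over the 8 genes, the level was 63.7, 84.7 and 51.8 CPM in HET mice 1 to 3 and 26.8, 31.4 and 21.7 CPM in WT mice 1 to 3. The means were 66.7 ± 16.7 (SD, n = 3) and 26.6 ± 4.83 CPM (SD, n = 3), a ratio of 2.51. HET mouse 2, the shallowest library with 26790075 reads on genes, was highest of the HET mice in 8 of 8 genes. WT mouse 3, the deepest library with 50368796, was lowest of the WT mice in 5. Within each genotype the order of the summed levels was the reverse of the order of reads on genes. The part of depth in the order of the mice was not tested. The median log2 fold change of the 8 was 1.31, beside −0.02 over all genes tested. The lowest HET mouse exceeded the highest WT mouse in 8 of 8 genes, as in 7.55% of all genes tested. At an adjusted p below 0.05, *H2-Aa* and *Cd74* were called higher, 2 of 8, where 0.143% of all genes tested were called higher. The choice of the genes used this contrast, so these shares are set side by side only. Without HET mouse 1 or 3 or WT mouse 1 or 2, 0 of the 8 were called and 0 of all genes tested. Without HET mouse 2, 0 of the 8 and 14 of all genes were called higher, and without WT mouse 3 the calls were *H2-Aa*, *H2-Eb1* and *Cd74* among 77 genes. Over these 6 fits the log2 fold change lay between 1.20 and 1.48 for *H2-Aa* and between 1.19 and 1.56 for *Cd74*. DESeq2's Wald test called 6 of the 8, where it called 1.48% of all genes tested higher. At an unadjusted p below 0.05 in edgeR, 8 of 8 were higher, beside 5.76% of all genes tested, again in the contrast by which they were chosen.

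Levels of different genes were compared per transcript length, as TPM, reads per length scaled to the same total in each mouse. In HET mice the order was *Cd74* at 60.6 ± 14.5 TPM (SD, n = 3), *H2-Eb1* at 23.8 ± 3.95, *H2-Ab1* at 20.2 ± 7.42 and *H2-Aa* at 19.0 ± 3.25. Each of the 3 chains was below *Cd74* in every mouse. Within a mouse, *H2-Eb1* was above *H2-Aa* in 6 of 6 mice, by a ratio of 1.16 to 1.40 in TPM, whereas *H2-Ab1* changed places with both from mouse to mouse. *H2-DMa* followed at 4.39 ± 0.482 TPM (SD, n = 3), *H2-DMb1* at 2.14 ± 0.368, *Cd86* at 0.754 ± 0.0979 and *Ciita* at 0.300 ± 0.0667. In WT mice the order was the same, from 21.3 ± 3.90 TPM (SD, n = 3) for *Cd74* to 0.104 ± 0.0174 for *Ciita*. *H2-DMa* and *H2-DMb1* came close there, at 1.74 ± 0.155 and 1.12 ± 0.404 TPM (SD, n = 3), and in WT mouse 1 they were nearly equal at 1.57 and 1.56 TPM.

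The proportions between the genes overlapped between the genotypes in each ratio computed. *Cd74* per *H2-Aa* was 3.17 ± 0.271 in HET and 3.05 ± 0.200 in WT mice (SD, n = 3), in TPM over TPM. The beta chain per alpha chain, *H2-Ab1* over *H2-Aa*, was 1.05 ± 0.221 in HET and 1.12 ± 0.130 in WT mice. *Cd74* per *Ciita* was 204 ± 38.1 and 208 ± 45.3, so the coactivator's own transcript stood in a like proportion to that of *Cd74* in both genotypes, within a wide spread. *Cd74* took 46.1 ± 0.577% of the summed TPM of the 8 genes in HET and 44.2 ± 2.33% in WT mice. The share of *Cd86* was 0.523% to 0.704% in HET and 0.256% to 0.616% in WT mice. These proportions are made from the same 6 libraries and were not tested.

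**Figure D2:**
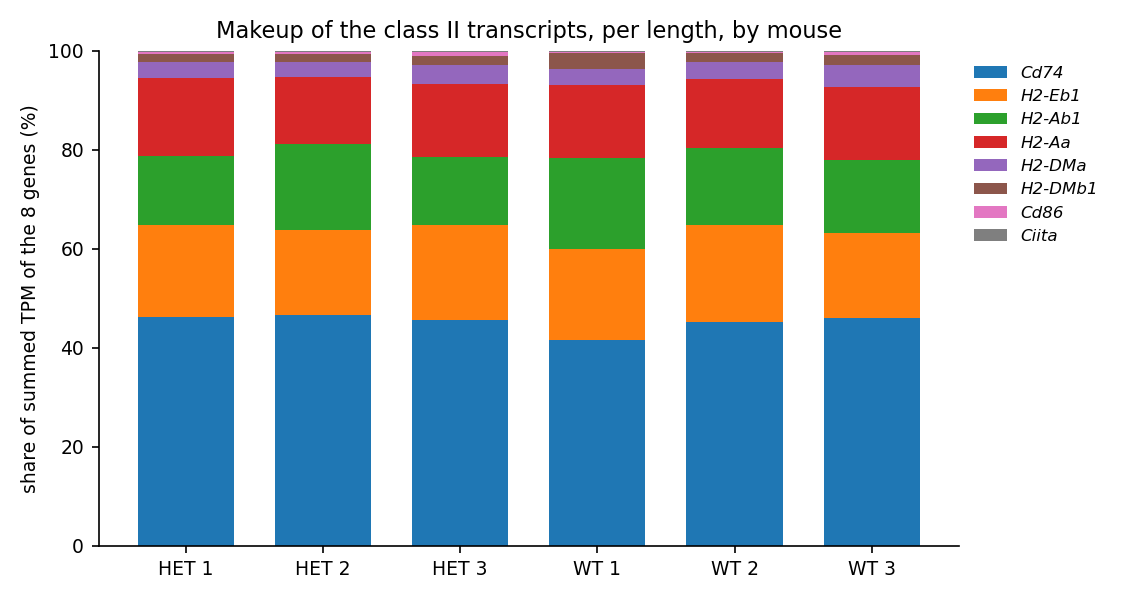
Share of each gene in the summed TPM of the 8 genes (%, stacked to 100) in each mouse. *Cd74* takes between 41.6% and 46.7%, the 3 chains most of the rest, and the ranges of each share overlap between HET and WT mice.

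The rest of the class II pathway was listed by textbook role. Of its 40 genes, 8 are those above, and of the other 32 genes 24 were tested. Among these 24, 12 had a log2 fold change above 0 and 12 below, where 45.6% of all genes tested were above 0. Their median was −0.01, 0 were called lower and 1 was called higher, where 0.143% of all genes tested were called higher. The gene called was *Ctss*, cathepsin S, the protease that trims the invariant chain in antigen-presenting cells. It had 211, 135 and 310 reads in HET mice and 69, 50 and 108 in WT mice. Its change on the log2 scale was 1.50 (SE 0.20, adjusted p = 0.0322 in edgeR). Without HET mouse 1 or 3 or WT mouse 1 or 2, 0 of the 40 genes were called in edgeR, as 0 of all genes tested. The other proteases and the reductase of the endosome had values near 0, with −0.05 for *Ctsl* (SE 0.09), −0.05 for *Lgmn* (SE 0.14) and 0.34 for *Ifi30* (SE 0.19). Many cell types make *Ctsl* and *Lgmn*, and both genes had 1434 reads or more in every mouse.

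Of the factors that bind the X and Y boxes, none passed the threshold. The RFX subunits, which hold the X1 box, had log2 fold changes of −0.13 for *Rfx5* (SE 0.13), −0.08 for *Rfxap* (0.12) and −0.02 for *Rfxank* (0.12). The NF-Y subunits, which hold the Y box, had 0.02 for *Nfya* (0.12), −0.19 for *Nfyb* (0.10) and −0.02 for *Nfyc* (0.11). *Creb1* had −0.05 (0.14). In 0 of these 7 genes did all HET mice exceed all WT mice. In *Nfyb* all HET mice were below all WT mice, at 20.9, 21.2 and 24.06 CPM in HET mice 1 to 3 and 24.08, 25.0 and 26.2 CPM in WT mice 1 to 3, as in 6.02% of all genes tested (adjusted p = 0.767 in edgeR). These factors are expressed in most cells of the muscle, so that their level in the cells that make class II molecules is not seen apart.

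Interferon gamma from T and NK cells is the classical inducer of *Ciita*. Its gene *Ifng* had 1 read in WT mouse 2 and 0 in the other 5 mice. The 6 tested genes of its signaling list, which include the receptor chains, had log2 fold changes between −0.13 for *Ifngr2* and 0.09 for *Ifngr1*, and 0 of 6 were called. *Irf1*, a factor that acts on the *Ciita* promoter, had a log2 fold change of 0.08 (SE 0.15).

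The other costimulatory genes gave no call. *Cd40*, through which T cells license the presenting cell, had a log2 fold change of −0.29 (SE 0.38), and *Icosl* of 0.10 (0.27). *Cd80*, the sister ligand of *Cd86*, had 13, 3 and 13 reads in HET mice and 1, 2 and 6 in WT mice and was not tested. *March1*, whose product marks class II and CD86 for removal from the surface, had 0.53 (0.38), and *Cd83*, which opposes it, had 0.54 (0.31). The H2-O chains, which restrain H2-DM in B cells, were at the bottom of the range. *H2-Oa* had 0 reads in the HET mice and 1, 0 and 2 in the WT mice, and *H2-Ob* had 6, 10 and 10 against 5, 13 and 13 reads. On the T cell side *Cd4* had 3 to 12 reads and was not tested, and *Cd28*, *Ctla4* and *Lag3* had log2 fold changes of 0.17 (0.23), 0.22 (0.32) and 0.00 (0.49).

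**Figure D3:**
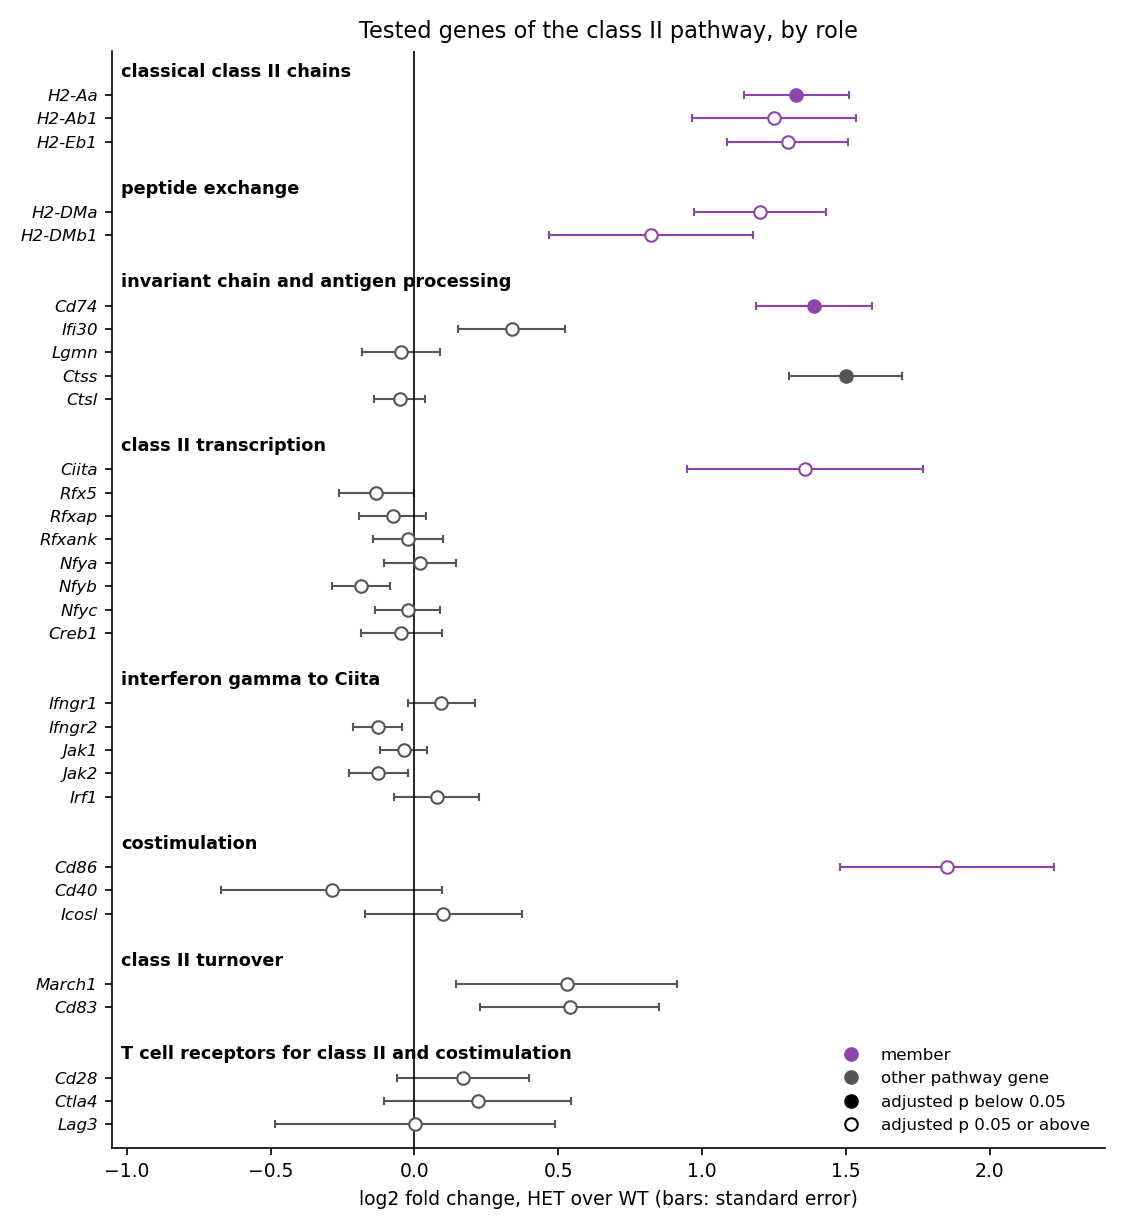
Log2 fold change of HET over WT for tested genes of the class II pathway, grouped by role, with standard errors as bars; purple marks the genes described here, and filled points have an edgeR adjusted p below 0.05. *H2-Aa*, *Cd74* and *Ctss* are filled, and the X and Y box factors and the interferon gamma genes drawn lie between −0.19 and 0.09.

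The genes between the H2 members offer a comparison by position. From *H2-DMa* to *H2-Eb1*, over 181 kb of chromosome 17, the count table holds 15 genes, of which 7 are class II genes. Of the other 8, 4 were tested, and these serve the supply of peptides to MHC class I molecules. They are *Psmb9* and *Psmb8* of the immunoproteasome, with log2 fold changes of 0.27 (SE 0.29) and 0.46 (0.22), and the peptide transporter genes *Tap1* with 0.31 (0.17) and *Tap2* with 0.20 (0.11). Each was above 0, beside 45.6% of all genes tested, and 0 of 4 were called.

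Markers of the cells that could carry these transcripts were read from lists of marker genes. Of 15 macrophage markers, all were tested and 14 had a log2 fold change above 0, beside 45.6% of all genes tested. The 5 called higher were *Adgre1*, *Csf1r*, *C1qa*, *C1qb* and *Lyz2*, where 0.143% of all genes tested were called higher. Values of the 15 ran from −0.10 for *Mertk* to 2.14 for *Fcgr1*, with a median of 1.39. *Fcgr1* had 13, 17 and 56 reads in HET mice and 2, 9 and 7 in WT mice. It and *Timd4* did not reach the level the filter asked for in all WT mice and so were tested through the HET mice. The summed level of the list was 132 to 170 CPM in HET and 77.5 to 106 CPM in WT mice. The sums of this list did not overlap between the genotypes, as for the class II genes, but the order of the mice within a genotype was another. HET mouse 2, the highest in all 8 class II genes, had the lowest macrophage sum of the HET mice at 132 CPM, and WT mouse 3, the lowest in 5 of the 8, had the highest of the WT mice at 106 CPM. Per CPM of the macrophage list, the 8 genes together gave 0.390, 0.643 and 0.305 CPM in HET mice 1 to 3 and 0.346, 0.339 and 0.205 in WT mice 1 to 3, which overlap. Per CPM of *Csf1r*, the receptor on which macrophages depend, they gave 3.88 to 7.61 in HET and 3.52 to 7.94 in WT mice. The part of macrophage number in the class II result was not tested.

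Dendritic cells are the strongest class II presenters, and their list gave a mixed picture. Of 11 markers, 6 passed the filter, 5 of these had a log2 fold change above 0, beside 45.6% of all genes tested, and 0 were called. The summed level overlapped, at 14.9 to 17.1 CPM in HET and 14.4 to 16.5 CPM in WT mice. Its largest part in every mouse was *Zbtb46*, which endothelial cells also express and whose log2 fold change was −0.25 (SE 0.13). All HET mice were below all WT mice in *Zbtb46*, at 8.94 to 10.7 and 10.9 to 12.9 CPM, as in 6.02% of all genes tested. The overlap of the sum thus says little about the other markers of the list. *Cd209a*, of monocyte-derived dendritic cells, had 18, 33 and 26 reads in HET mice and 0, 2 and 9 in WT mice (log2 fold change 2.89, SE 0.69, adjusted p = 0.174 in edgeR). *Clec10a* had 64, 56 and 45 reads in HET mice and 24, 14 and 15 in WT mice (1.61, SE 0.41, adjusted p = 0.212 in edgeR), and *Itgax*, which encodes CD11c, had 26, 30 and 26 against 17, 9 and 9 reads (1.19, SE 0.47). In 4 of the 6 tested markers, these 3 and *Batf3*, the lowest HET mouse exceeded the highest WT mouse in CPM, beside 7.55% of all genes tested. *Cd209a* and *Batf3* reached the level the filter asked for in 3 HET and 0 WT mice, and *Itgax* in 3 HET and 2 WT mice. *Cd209a*, *Batf3* and *Itgax* were thus tested through the HET mice. *Irf8* overlapped between the genotypes, with a log2 fold change of 0.17 (SE 0.20). *Xcr1* and *Clec9a*, of the cross-presenting subset, had 0 to 7 reads in a mouse and were not tested. The part of dendritic cells in the class II result was not tested.

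Most markers of lymphocytes were near the floor. Of 8 B cell markers 2 were tested and 0 called, with a summed level of 4.59 to 5.77 CPM in HET and 3.23 to 3.85 CPM in WT mice, most of it *Ighm*. The log2 fold change was 0.71 for *Ighm* (SE 0.19) and −0.31 for *Cd79b* (SE 0.47), the other tested marker. *Cd79a*, a chain of the B cell receptor complex, had 0 to 3 reads in a mouse. Of 8 T cell markers 0 passed the filter, the sums were 0.410 to 0.570 CPM in HET and 0.234 to 0.780 CPM in WT mice, and *Cd3e* had 1 to 3 reads in a mouse. Of 5 monocyte and neutrophil markers 2 were tested and 0 called, with sums of 8.35 to 10.3 and 5.33 to 6.45 CPM. *Ccr2*, the chemokine receptor of incoming monocytes, was one of them, with a log2 fold change of 1.50 (SE 0.32, adjusted p = 0.123 in edgeR). The other, *Csf3r*, had 0.05 (SE 0.16, adjusted p = 0.975 in edgeR). No marker of these lists was at 0 in all 6 mice.

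Connective tissue markers were also at higher sums in the HET mice. Of 6 fibroblast markers, 6 had a log2 fold change above 0, beside 45.6% of all genes tested. *Pi16* was called, where 0.143% of all genes tested were called higher. The fibroblast sums were 833 to 1224 CPM in HET and 405 to 663 CPM in WT mice. Of 5 tendon markers, 5 were above 0, beside the same 45.6%, and 0 were called, with sums of 319 to 552 and 100 to 257 CPM. The smallest tendon value was that of *Scx* at 0.15 (SE 0.15), whose genotypes overlapped. All HET mice exceeded all WT mice in 4 of the 6 fibroblast and 4 of the 5 tendon markers, beside 7.55% of all genes tested. Of 6 endothelial markers, 3 were above 0 and 0 called, with sums of 459 to 561 and 470 to 606 CPM. The 7 slow fiber markers, which define the soleus, were present at 37190 to 39533 CPM in HET and 38059 to 42316 CPM in WT mice, and 0 were called. The part of the connective tissue in the class II result was not tested.

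**Figure D4:**
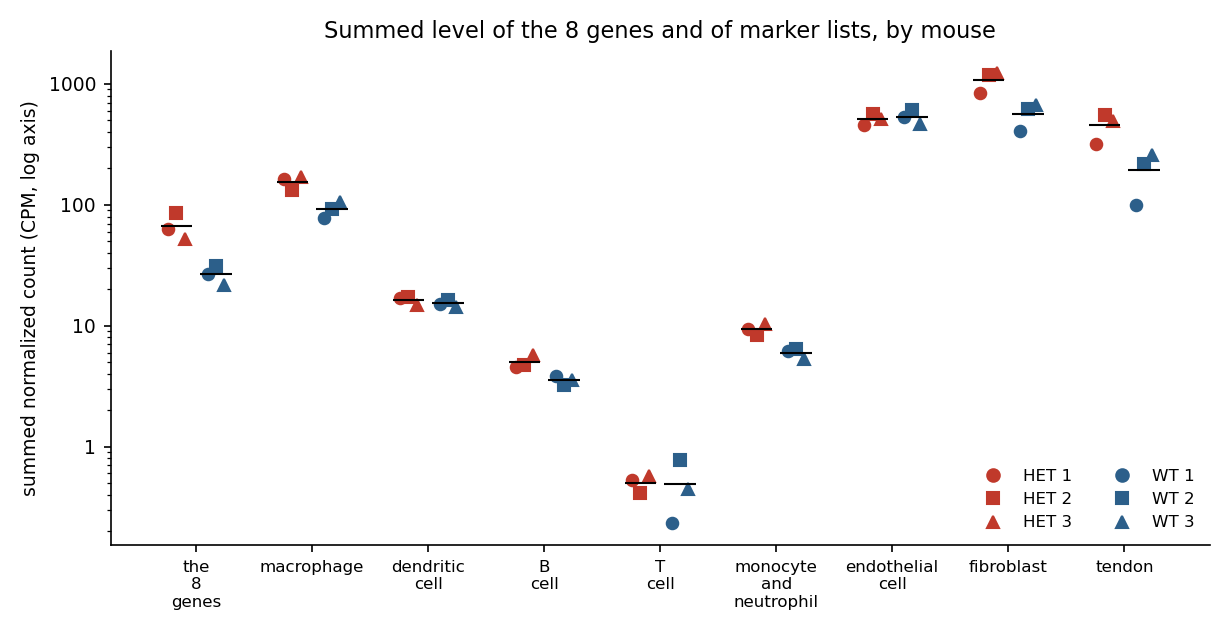
Summed normalized counts (CPM, log axis) of the 8 genes and of 8 lists of cell type markers in each mouse, red for HET and blue for WT, with a marker shape for each replicate number and a black line at the mean of 3 mice. The genotypes do not overlap for the 8 genes, the macrophage list, the B cell list, the monocyte and neutrophil list, the fibroblast list and the tendon list, and HET mouse 2 (red square) is at the top for the 8 genes but at the bottom of the HET mice for the macrophage list.

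The genes whose pattern over the 6 mice came closest to that of the 8 were sought among the 12400 other tested genes with a mean of at least 1 CPM. The measure was the root mean square difference between centered log2 CPM profiles, with 0 for the same profile. The nearest was *Mpeg1*, which encodes perforin-2 of phagocytes, at 0.129, followed by *Coro1a*, an actin regulator of leukocytes, at 0.135. *Pld4*, an endolysosomal exonuclease, was at 0.142, *Laptm5*, a lysosomal membrane protein of blood cells, at 0.196, and *Cotl1*, a coactosin-like actin binder, at 0.204. The members themselves lay between 0.0971 for *H2-Aa* and 0.374 for *Cd86* from their own mean profile. *Mpeg1* stood at 3.55, 4.88 and 4.19 CPM in HET mice 1 to 3 and at 1.81, 2.09 and 1.70 CPM in WT mice 1 to 3, with HET mouse 2 highest as in the class II genes. The 5 were chosen for their profile and were not tested.

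Across other processing choices, the direction of each of the 8 genes was the same. The log2 fold changes stayed above 0 in 13 of 13 alternatives for each gene. They lay between 1.20 and 1.48 for *H2-Aa*, 1.19 and 1.56 for *Cd74*, 1.12 and 1.49 for *H2-Eb1*, 0.92 and 1.46 for *H2-Ab1*, and 1.11 and 1.28 for *H2-DMa*. The ranges were 0.56 to 1.15 for *H2-DMb1*, 1.20 to 1.49 for *Ciita* and 1.66 to 2.14 for *Cd86*. *H2-Aa* and *Cd74* passed the threshold in 7 of 13 alternatives, *H2-Eb1* in 5, *H2-Ab1* in 3, *H2-DMa* and *Cd86* in 2, and *H2-DMb1* and *Ciita* in 0.

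**Figure D5:**
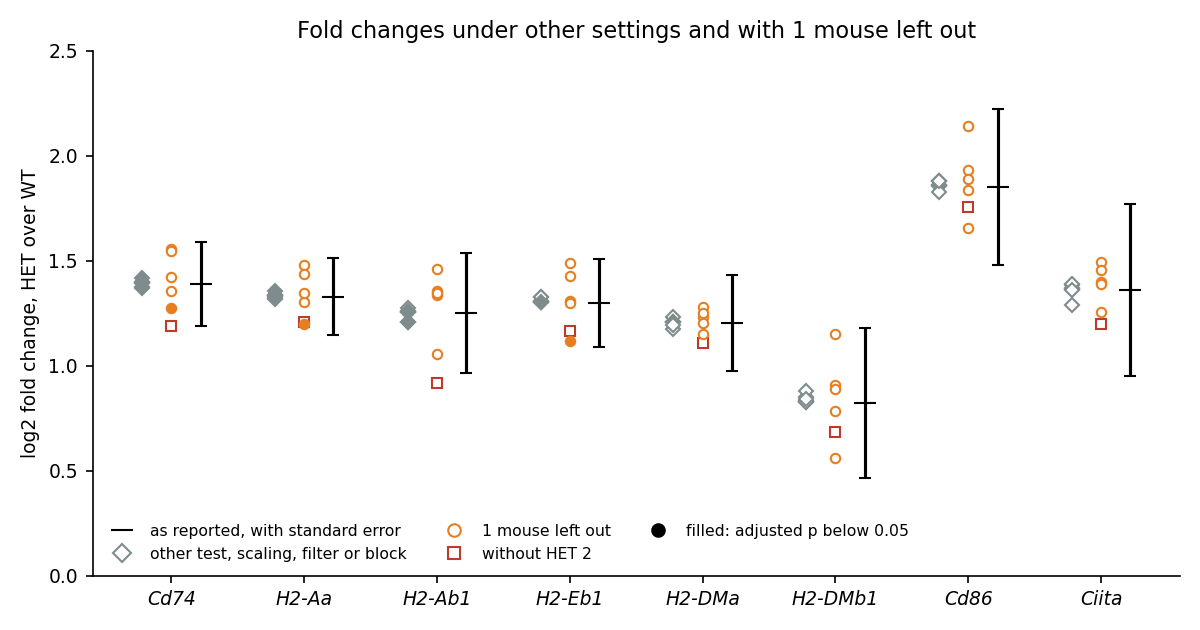
Log2 fold change of HET over WT for the 8 genes as reported (black, with standard error), under other tests, scalings, filters or the block (grey diamonds), and with 1 mouse left out (orange circles, red squares without HET mouse 2). Filled points have an adjusted p below 0.05, every point is above 0, and leaving out HET mouse 2 gives the lowest value for *H2-Ab1* at 0.92.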

How the data were processed

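The authors aligned single-end reads to GRCm38.p6 with STAR 2.7.3a and deposited raw counts per gene from featureCounts 2.0.3, counted by strand and not normalized. Their deposited signal table, the raw count over 1 DESeq2 size factor per library (0.773 to 1.42), served here to find the genes by symbol. Another file holds the authors' DESeq2 comparison (fold changes, p-values) and was not used, and 0 columns of values were left without a sample.

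The members, the pathway and the marker lists were chosen with earlier results of these data known. All genes were fitted in R 4.3.3 with edgeR 4.0.16: filterByExpr with a minimum count of 10, TMM scaling, robust quasi-likelihood F test of HET against WT, two-sided, Benjamini-Hochberg adjustment over all genes tested, threshold 0.05. A standard error is the log2 fold change over the square root of F. CPM use TMM factors, and TPM the lengths in the count table. Tables and figures were made in Python 3.11.15 with pandas 2.3.3 and matplotlib 3.10.9. The fit was tested on simulated counts. Read counts spread more between mice of a genotype than counting error gives, with a chi-square per gene of 15.0 to 42.8 against about 1.

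The genes named were every member, the pathway list by role, the ends of the macrophage list, the calls of the marker lists and the 5 genes of nearest profile. *Mustn1*, *Xist* and *Ddx3y*, *Kdm5d*, *Uty* and *Eif2s3y* served as checks of the labels. The ends of most other marker lists were not named. *Timd4*, *Zbtb46*, *Cd209a*, *Clec10a*, *Itgax*, *Batf3*, *Irf8*, *Xcr1*, *Clec9a*, *Ighm*, *Cd79a*, *Cd79b*, *Cd3e*, *Ccr2*, *Csf3r*, *Scx* and the class I genes of the H2 region were named after their values were seen. Alternatives were RLE, upper quartile and the deposited size factors as scaling, no filter on low counts, DESeq2 1.42.0, limma-voom (limma 3.58.1), the replicate number as a block, and each mouse left out. Which mice shared a litter is not given in the sources used here. The p-values weigh the difference between genotypes against the spread between mice of a genotype, and take no account of litters. Some genes of the lists enter the counts and sums but are not reported singly here.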

Additional observations from a re-analysis of the deposited data

How the results depend on the processing

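With all mice, 21 genes were called higher and 1 lower in HET mice, among them 2 of the 8 class II members and 3 genes of the pathway list. Without the filter on low counts these 4 numbers were 386, 18, 6 and 7, with DESeq2's Wald test 218, 8, 6 and 7, and with limma-voom 3, 0, 0 and 0. With 1 mouse left out, the genes called higher ranged from 0 to 77, those called lower from 0 to 6, the members called from 0 to 3 and the pathway genes called from 0 to 4. The highest numbers came without WT mouse 3, and without HET mouse 2 they were 14, 1, 0 and 1. The other scalings called 2 or 3 members. The cause of these shifts was not tested. Of 104 fold changes of members under an alternative, 0 changed direction, 12 lost and 12 gained a call. *Ciita* and *Cd86* had only 5 to 16 reads in a WT mouse, and no alternative varied the depth.

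The replicate numbers were not treated as pairs, since the deviations of same-numbered mice from their group means correlated at 0.20, −0.0058 and −0.035. With the replicate number as a block, 114 genes were called higher and 2 lower, with 4 members (*H2-Aa*, *H2-Ab1*, *H2-Eb1* and *Cd74*) and 5 pathway genes called. Of the 3 pairs, the mice numbered 1 correlated best with each other, and those numbered 2 and 3 did not.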
